A study of Caenorhabditis elegans with 23 samples.

Results

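The *abu* and *pqn* genes of *C. elegans* are 70 protein-coding genes, 14 named *abu* and 56 named *pqn*, among 21985 genes and unmatched transcripts in the quantification. They were chosen by name alone, as every gene called *abu-* or *pqn-* followed by a number in the WBcel235 annotation, and their estimated reads were summed over transcripts. PolyA+ RNA of mixed-stage whole animals was sequenced to ask what loss of *sid-1*, which encodes an importer of double-stranded RNA, does to gene expression. The 23 libraries fell into 3 sets, and each mutant was compared with the strains of its own set.

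The deletion set held N2 wild type and *sid-1(jam113[deletion])*, with 3 libraries each. The nonsense and revertant set, called the nonsense set here, held 3 libraries each of N2, of *sid-1(jam80[nonsense])* and of the revertant *sid-1(jam86[revertant])*, made by editing the nonsense allele back to the wild-type sequence. Both sets came from plates, RNAzol extraction and paired-end stranded libraries, and are called the plate sets. Each of the *jam* strains was 1 edited isolate. The older set held 2 libraries each of N2, of *sid-1(qt9[nonsense])*, of *sid-1(tm2700[deletion])* and of a rescue strain in which *sid-1(tm2700[deletion])* is combined with the integrated transgene *tmIs1005[sid-1(+)]*. These came from TRIzol extraction and single-read libraries, and the labels give liquid culture where the methods describe plates. The transgene of the rescue strain also holds a *vps-45* mini gene. No agent was given to any group.

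The name *abu* stands for "activated in blocked unfolded protein response", after genes that were induced when endoplasmic reticulum stress was applied to animals lacking a branch of that response. The name *pqn* stands for "prion-like, glutamine- and asparagine-rich", after a low-complexity domain in the protein, and it groups genes of unrelated function. A family of short, related *abu* and *pqn* genes is known for expression in the pharynx around each moult, when the cuticle lining the pharynx is rebuilt. Whole-animal RNA cannot place a transcript in a tissue, and fewer cells of a type cannot be told apart from less RNA per cell. Protein sequence was not used here, so the glutamine-rich domain was not checked.

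In the deletion set, *sid-1* was at 49.0 to 54.1 CPM (read counts relative to the library total, scaled within a set by the trimmed mean of M-values) in wild type and at 1.19 to 1.42 CPM in *sid-1(jam113[deletion])*. The nonsense alleles *jam80* and *qt9* had log2 fold changes of -1.0 and -0.94, and *sid-1* was higher in the rescue strain than in the wild type by 0.59. In *sid-1(tm2700[deletion])* it remained at 21.4 and 23.5 CPM, where N2 was at 31.2 and 32.4 CPM (log2 fold change -0.50 ± 0.10, edgeR adjusted p = 0.0432). In *sid-1(jam86[revertant])* it did not pass the test (log2 fold change -0.15, adjusted p = 0.256, edgeR). Totals of estimated counts ran from 22147631 to 26396892 in the older set and from 35320382 to 79287591 in the plate sets.

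The members ranged from abundant to hardly detected. By TPM (a gene's length-adjusted share of the transcripts of a library), 55 of the 70 had a median over all libraries of at least 1, 23 of at least 10, and 15 lay under 1. Among the 23 there was 1 *abu* gene, *abu-14*. The median of these gene medians was 1.92 TPM for *abu* and 4.79 TPM for *pqn*. The top 5 were all *pqn* genes. They made up 60.1 to 63.7% of the summed TPM of the 70 in the deletion set, 44.1 to 49.1% in the nonsense set and 54.7 to 60.5% in the older set.

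*pqn-59*, which encodes a relative of the human stress granule protein UBAP2L, had the highest level, with a median of 265.9 TPM and a range from 129.9 to 362.6 TPM. *pqn-52* had a median of 157.8 TPM (93.4 to 209.4), *pqn-70* of 139.2 TPM (78.2 to 222.6), *pqn-53* of 92.2 TPM (80.9 to 125.7) and *pqn-51* of 89.6 TPM (38.4 to 104.5). The order of these 5 by TPM was not the same in each set, since *pqn-53* had a higher median than *pqn-52* in the older set (116.0 against 101.1 TPM) and a lower one in both plate sets. *pqn-59* was first in every library. *pqn-41*, which promotes the programmed death of the male linker cell, had a median of 16.1 TPM (8.46 to 20.3).

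**Figure D1:**
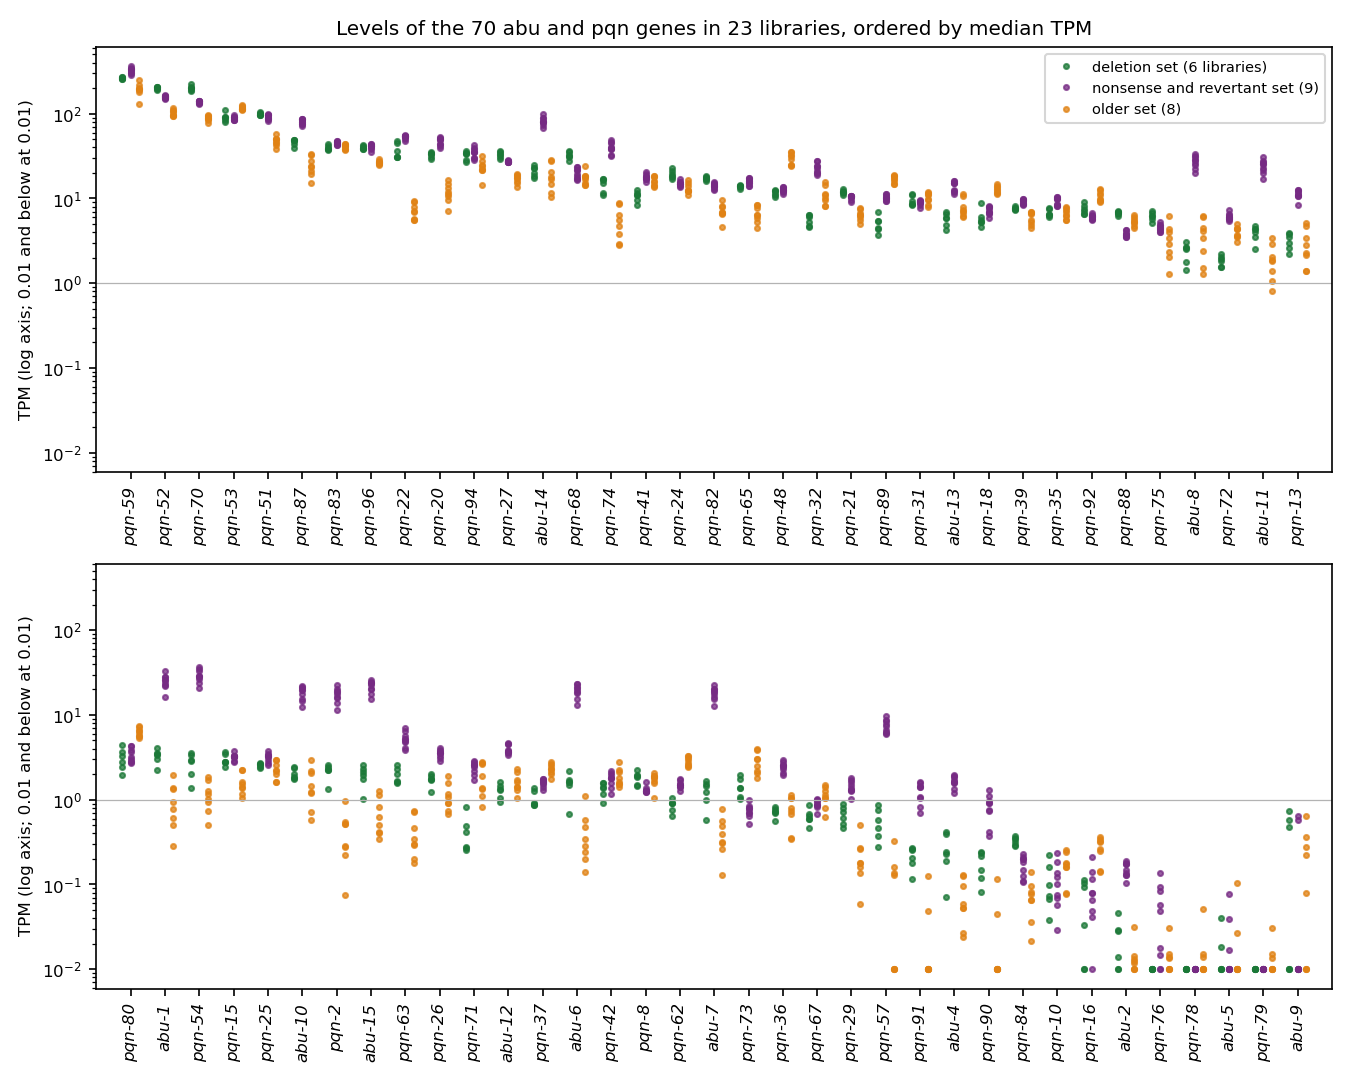
Length-adjusted level (TPM, log axis) of each of the 70 members in 23 libraries, ordered by the median over all libraries, with each point 1 library and the colour its set. The first 5 genes have medians between 89.6 and 265.9 TPM, and a run of *abu* and *pqn* genes further right, *abu-8*, *abu-11*, *abu-1* and *pqn-54* among them, is higher in the nonsense set than in the other sets.

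At the other end, *abu-5*, *pqn-76*, *pqn-78* and *pqn-79* were close to 0 everywhere. These 4 genes lie together on chromosome IV between 15579086 and 15596645 (WBcel235), each with 1008 exonic bases, and none passed 0.136 TPM in any library. They and *abu-2*, *pqn-90*, *pqn-91*, *pqn-16*, *abu-4*, *abu-9* and *pqn-57* lay below the filter on low counts in one comparison or another. Where a gene was below the filter, a change was not detectable at this depth. The comparisons within sets thus tested 61 to 64 of the 70.

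Of the neighbours *pqn-57* and *abu-9*, which lie 1121 bp apart on chromosome X, 1 had 0 estimated reads in 17 of the 23 libraries. *abu-9* was at 0 in 13 of them and *pqn-57* in 4. In *sid-1(qt9[nonsense])* the zero changed gene between libraries, where *pqn-57* was at 0.68 and 0.00 CPM and *abu-9* at 0.00 and 0.69 CPM. The sum of the pair was 0.68 and 0.69 CPM in the same libraries. How reads were divided between these genes could not be checked here, and the pair is given by its sum below, without a fold change for either gene where 1 of them was at 0.

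**Figure D2:**
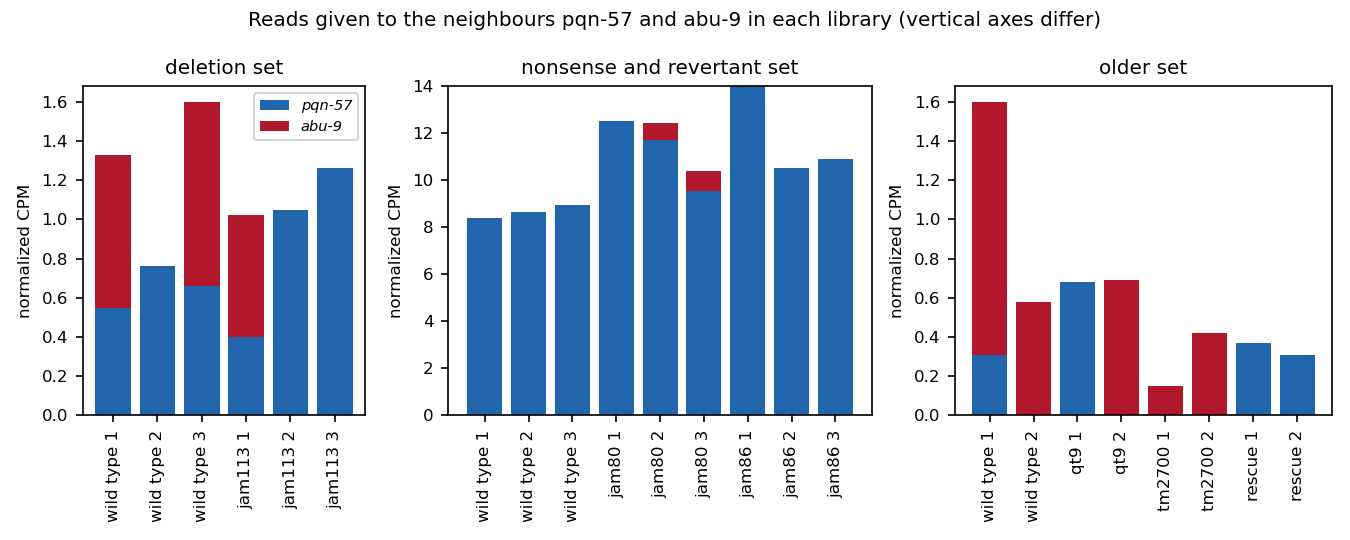
Stacked bars of normalized CPM given to *pqn-57* and *abu-9* in each library, 1 panel per set with its own vertical axis from 0. In the older set each library but 1 has reads on only 1 of the pair, and the sums in the nonsense set, 8.39 to 13.96 CPM, are above those of the other sets, all at 1.61 CPM or below.

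The largest difference among the members was between the wild types of the plate sets, which were compared only once the data had been examined. N2 animals of both sets were grown on plates by their labels, and the methods describe the same extraction and sequencing for both sets. Even so, 50 of 64 members differed (edgeR, adjusted p under 0.05), as did 64.4% of all 16757 genes tested. In the nonsense set 46 were higher, against 33.5% of all genes. The count is thus read against a background in which most genes moved. By size the members stood further from the rest: 16 of 64 were higher by at least 2 on the log2 scale against 2.37% of all genes, and 7 of 64 by at least 3 against 0.519%. The median log2 difference was 2.90 over the 12 *abu* genes tested, 0.45 over the 52 *pqn* genes and 0.03 over all genes.

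Among the steepest were *abu-7*, *abu-8* and *pqn-54*. Scaled together, *abu-7* was at 19.9, 25.9 and 24.1 CPM in N2 of the nonsense set and at 1.40, 0.71 and 2.20 CPM in N2 of the deletion set. *abu-8* was at 36.1, 46.4 and 40.6 CPM in the first and at 2.90, 2.05 and 4.19 CPM in the second. *pqn-54* was at 31.1, 41.2 and 36.4 against 2.68, 1.62 and 4.48 CPM. In each case the groups lay far apart, with log2 differences of 3.99 ± 0.25 (SE, n = 3 against 3, edgeR adjusted p = 3.39e-08), 3.74 ± 0.19 (adjusted p = 7.24e-09) and 3.61 ± 0.24 (adjusted p = 5.62e-08).

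*abu-6* (3.61), *abu-15* (3.50), *abu-10* (3.16), *pqn-2* (3.0), *abu-1* (2.94), *abu-4* (2.87), *abu-11* (2.78) and *pqn-71* (2.62) followed, each without overlap of the wild types. The sum of *pqn-57* and *abu-9* differed by 3.03 ± 0.20. *abu-14*, the *abu* gene with the highest level, differed by 2.14 ± 0.12. The 16 members past a log2 difference of 2 were 10 *abu* and 6 *pqn* genes, a split that was made after their values were seen and so carries no test. They had a median of 1298 exonic bases (1060 to 1959) and of 2 distinct exons. The other 48 tested had medians of 2012 bases and 10 exons, and their lengths, 382 to 6786 bases, held the range of the 16. Short genes with 2 exons lay outside the 16 too, such as *pqn-94* (382 bases) and *pqn-88* (707 bases). Below, "shifted" names these 16, which were taken by the difference between the wild types and not by length or exon number. Being high in the nonsense set was thus fixed by how they were taken. Of the 16, 9 lay on chromosome V, as did 9 of the other 48.

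*pqn-83* had a narrow range, from 37.3 to 47.6 TPM over all 23 libraries, although it too was higher in N2 of the nonsense set (0.52 ± 0.07 on the log2 scale). Its medians in the deletion, nonsense and older sets were 39.1, 45 and 41.7 TPM. By contrast, *abu-8* had medians of 2.56, 28.2 and 3.77 TPM, *pqn-54* of 2.89, 28.6 and 1.09 TPM, and *abu-1* of 3.41, 25.7 and 0.853 TPM. The older set differed from the plate sets in extraction, library kit and read type, so its levels stand beside theirs without a test.

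Several gene lists differed between the wild types in the same direction as the shifted members. The lists were chosen with earlier results of these data known, and the shifted members by this same difference, so the shared direction carries no test. Of 32 pharyngeal cuticle genes tested, 28 were higher in the nonsense set and 1 lower, with a median log2 difference of 1.98. *idpc-1* was higher by 3.48 ± 0.18 and *idpp-12* by 3.31 ± 0.20. Of 20 moulting genes 18 were higher (median 1.57), among them *fbn-1*, a fibrillin-like matrix gene, by 2.12 ± 0.11. Of 130 cuticle collagens 113 were higher and 2 lower (median 1.80). The 13 pharynx genes, which mark the tissue rather than its cuticle, had a median of 0.08, with 5 higher and 3 lower, and *myo-2*, the pharyngeal muscle myosin, differed by 0.56 ± 0.11. All 6 early embryo genes were lower (median -0.98), and of 20 genes of the endoplasmic reticulum unfolded protein response 15 were higher and 2 lower (median 0.39). All 4 body muscle genes (median 1.05) and 23 of 30 sperm genes (median 0.43) were also higher. No gene of the pharyngeal cuticle, moulting or pharynx lists was at 0 reads throughout a group. The part of these groups in the differences of the *abu* and *pqn* genes was not tested. The strain is the same, and the sets cannot be told apart from whatever else differed between them.

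**Figure D3:**
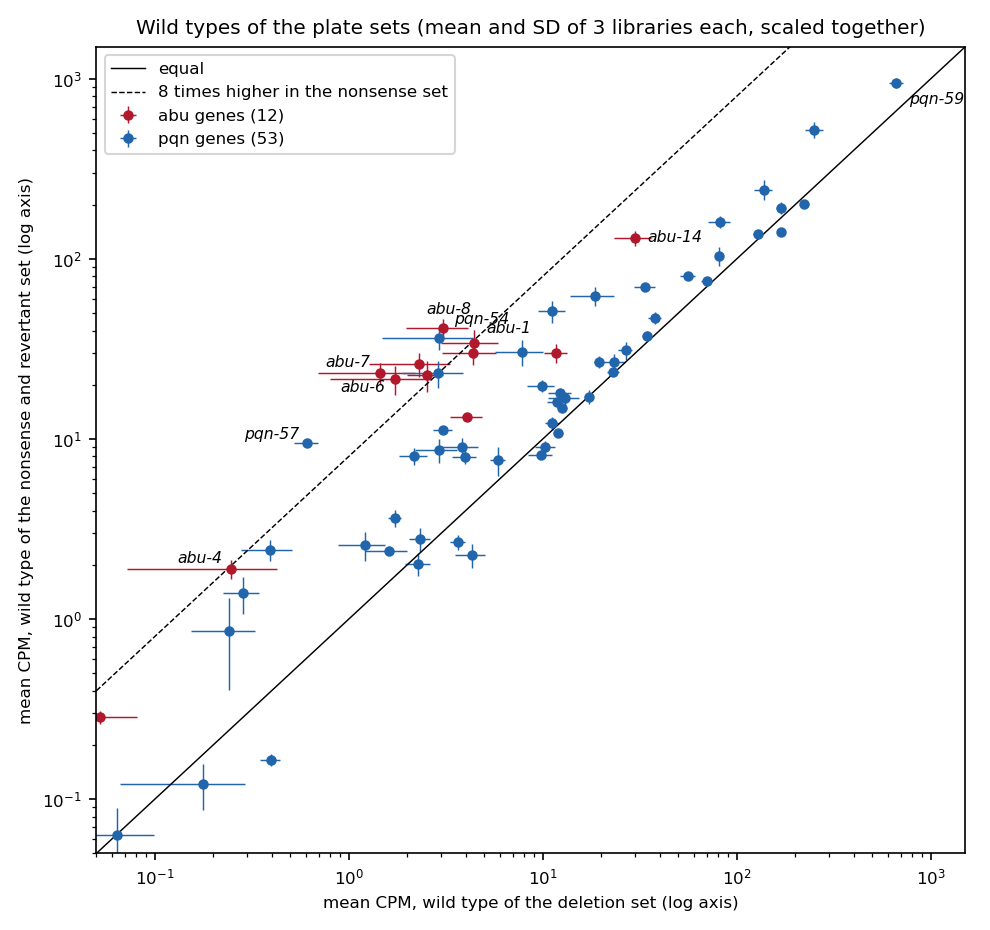
Mean CPM of each member in the wild type of the nonsense and revertant set against that of the deletion set (log axes, 3 libraries each, bars 1 SD), with *abu-9* and members at or under 0.05 CPM in either group left out and *pqn-57* plotted alone. The labelled *abu* genes other than *abu-14*, and *pqn-54*, lie near or above the dashed line of an 8-fold difference. *abu-14* lies below that line, at means of 130.2 CPM in the nonsense set and 29.7 CPM in the deletion set, and *pqn-59* lies close to the line of equal levels.

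In the deletion set, loss of *sid-1* left no member past the test. Of 64 tested, 0 had an adjusted p under 0.05 in *sid-1(jam113[deletion])* against its wild type (edgeR), against 0.197% of 16783 genes. At an unadjusted p under 0.05 there were 6 members, 9.38% of those tested, and 12.7% of all genes. limma(voom) and DESeq2 also called 0. The median log2 fold change of the members was 0.08. Cuticle collagens summed to 20192 to 27116 CPM in the mutant against 11616 to 17930 CPM in wild type (median log2 fold change 0.42, 0 of 131 called). The sums of the moulting list (346.9 to 419.6 against 333.6 to 405.6 CPM) and of the pharyngeal cuticle list (119.8 to 131.5 against 106.3 to 135.6 CPM) overlapped. The part of these lists was not tested.

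The 3 members with the lowest p were below the threshold. *pqn-53* was at 135.6, 148.3 and 130.4 CPM in the wild type and at 117.1, 124.4 and 124.3 CPM in the mutant, a log2 fold change of -0.18 ± 0.06 (edgeR adjusted p = 0.306). *pqn-22* was at 88.9, 77.2 and 96.9 against 128.2, 127.3 and 88.0 CPM, with the third mutant library inside the wild-type range (0.39 ± 0.15, adjusted p = 0.326). *pqn-37* stayed between 1.74 and 1.99 CPM in the wild type and between 2.06 and 3.02 CPM in the mutant (0.47 ± 0.18, adjusted p = 0.328). Without the third *sid-1(jam113[deletion])* library, *pqn-22* passed the test (0.55, adjusted p = 0.00705), and it was then the 1 member called.

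Of the 9 shifted genes on chromosome V, *abu-15*, *abu-6*, *abu-7* and *abu-8* lie nearest to *sid-1* itself (5119970 to 5126916). *abu-15* (5158602 to 5159907) starts 31685 bp past the end of *sid-1*, followed by *abu-6* (5160678 to 5161892), *abu-7* (5163270 to 5164782) and *abu-8* (5192995 to 5194608). In the deletion mutant their log2 fold changes were 0.18 ± 0.32, 0.11 ± 0.37, 0.39 ± 0.34 and 0.51 ± 0.24, with adjusted p from 0.429 to 0.944 (edgeR). With standard errors this large, increases of the size given below for *abu-7* and *abu-8* in the nonsense mutant could not be detected. For *abu-8* the values were 3.10, 2.25 and 4.47 CPM in the wild type and 4.48, 4.15 and 5.40 CPM in the mutant, which overlapped. *pqn-51*, on the other side of *sid-1* (5049607 to 5052214), was at 172.5 to 187.2 CPM in the wild type and 171.5 to 182.6 CPM in the mutant.

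In the nonsense set, most members were higher in *sid-1(jam80[nonsense])* than in the wild type, and none passed the test over all genes. Of 64 tested, 55 had a log2 fold change above 0, where 49.9% of 16548 genes did. 22 members had an unadjusted p under 0.05, all of them higher, which is 34.4% of those tested against 3.75% of all genes that were higher at that p. After adjustment 0 members remained, against 0.0665% of all genes (edgeR). limma(voom) also called 0 members and DESeq2 called 6.

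*abu-8* was at 33.0, 42.4 and 37.1 CPM in the wild type and at 52.2, 45.9 and 47.3 CPM in the nonsense mutant, without overlap (0.37 ± 0.08, edgeR adjusted p = 0.239). *abu-7* was at 18.2, 23.7 and 22 against 29.2, 26.1 and 27.3 CPM (0.37 ± 0.08, adjusted p = 0.342). *pqn-94* was at 26.5, 32.2 and 26.6 against 36.2, 37.2 and 34.6 CPM (0.34 ± 0.07, adjusted p = 0.239). All 3 were below the threshold, although their groups did not overlap. In all, 19 of 64 members were higher in every mutant library than in every wild-type library, against 5.37% of all genes. Without the second wild-type library, 6 members passed the test, *abu-8*, *abu-6*, *abu-10*, *abu-11*, *abu-15* and *pqn-94*. The summed level of the pharyngeal cuticle list was 296.4 to 341.1 CPM in the mutant against 271.6 to 295.4 CPM in wild type, and that of the pharynx list 749.2 to 822.1 against 596.4 to 714.9 CPM. The sums of the moulting list (696.8 to 875.5 against 702.9 to 804.3 CPM) and of the cuticle collagens (40458 to 47082 against 41755 to 43809 CPM) overlapped. No gene of these lists was called. Their part in the values of the members was not tested.

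The revertant, whose *sid-1* sequence is wild type, had more members past the adjusted threshold than the nonsense mutant did. So did all genes, with 396 higher and 149 lower in the revertant against 6 and 5 in the nonsense mutant. At an unadjusted p under 0.05 (edgeR) the strains were close, with 24 of 64 members higher in the revertant and 22 in the nonsense mutant. In *sid-1(jam86[revertant])* 10 of 64 members were higher than in the wild type and 0 lower (edgeR, adjusted p under 0.05), against 2.38% of 16630 genes that were higher. They were *pqn-42*, *pqn-2*, *abu-1*, *abu-6*, *pqn-54*, *abu-8*, *abu-7*, *pqn-74* and *pqn-35*, with log2 fold changes between 0.28 and 0.55, and *pqn-57*, which is given below by the sum with *abu-9*. In 20 of 64 members every revertant library lay above every wild-type library, against 14.2% of all genes. In the nonsense mutant it was 19 of 64, against 5.37% of all genes. The median over the members tested was 0.14, over the 12 *abu* genes 0.39, and over all genes 0.02.

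*pqn-2* was at 17.7, 24.9 and 21.1 CPM in the wild type and at 34.6, 28.6 and 29.2 CPM in the revertant (0.53 ± 0.10, edgeR adjusted p = 0.0138). *abu-8* was at 56.1, 43.8 and 52.4 CPM in the revertant (0.43 ± 0.09, adjusted p = 0.0226), above every wild-type library given above. *pqn-54* was at 28.4, 37.6 and 33.3 against 51, 39.0 and 44.9 CPM (0.44 ± 0.10, adjusted p = 0.0291). In these genes the lowest revertant library was the second and the lowest wild-type library the first, and the groups came within a few CPM of each other.

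*abu-7* was at 32.9, 25.3 and 28.1 CPM in the revertant (0.43 ± 0.10, adjusted p = 0.0342, edgeR). *abu-6* was at 16.1, 23.4 and 19.4 CPM in the wild type and 29.1, 23.5 and 28.8 CPM in the revertant (0.46 ± 0.11). *abu-1* was at 24.7, 34.9 and 33.6 against 51.5, 37.1 and 42.4 CPM (0.48 ± 0.12). The sum of *abu-1* and its neighbour *pqn-2*, 615 bp away, was higher by 0.50 ± 0.11, the sum of *abu-15*, *abu-6* and *abu-7* by 0.42 ± 0.10, that of *pqn-57* and *abu-9* by 0.44 ± 0.11, and that of *pqn-90* and *pqn-91* by 0.71 ± 0.18. All 4 sums passed the test, with adjusted p from 0.0231 to 0.0433 (edgeR).

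Outside the shifted group, *pqn-42* was at 2.15, 2.56 and 2.90 CPM in the wild type and at 3.94, 3.34 and 3.97 CPM in the revertant (0.55 ± 0.14, edgeR adjusted p = 0.0443). *pqn-35* was at 15.9 to 16.9 CPM in the wild type and 19.5 to 20.2 CPM in the revertant (0.28 ± 0.07, adjusted p = 0.0443). *pqn-35* overlaps 4 C-type lectin genes on the other strand. *pqn-74* was at 51.7, 64.9 and 54 against 80.6, 63.0 and 76.1 CPM, and here the groups overlapped (0.36 ± 0.09, adjusted p = 0.0451). The count was 1 without wild-type library 1 (*pqn-2*), 3 without revertant library 1 and 0 without revertant library 3. Without wild-type library 3 it was 2, *abu-13* and *pqn-90*, and 0 of the 10 remained. With the replicate number as a block it was 2, *abu-8* and *pqn-2*.

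Other lists moved in the revertant too. Of 32 pharyngeal cuticle genes 4 were higher and 0 lower (*idpp-1* 0.50 ± 0.08, *idpa-3* 0.48 ± 0.08), and their summed level was 325.8 to 369.1 CPM against 271.6 to 295.4 CPM in the wild type. Of 135 cuticle collagens 47 were higher, *col-88* by 0.57 ± 0.06, with sums of 44439 to 47326 against 41755 to 43809 CPM. Of 30 sperm genes 12 were higher, with sums of 2463 to 2509 against 1820 to 2195 CPM. Among 20 moulting genes 1 was higher, *fbn-1* by 0.41 ± 0.07. Of the 20 genes of the unfolded protein response, the pathway that gave the *abu* genes their name, 1 was lower, the kinase gene *pek-1* by -0.27 ± 0.07, and *hsp-4*, the chaperone used as its reporter, was at -0.18 ± 0.06 (adjusted p = 0.0946). The part of the other lists in the *abu* and *pqn* differences was not tested.

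Compared with each other, the revertant and the nonsense mutant differed in 1 member of 64, against 1.25% of 16603 genes (edgeR). *pqn-20* was at 233.0, 226.0 and 238.3 CPM in *sid-1(jam80[nonsense])* and at 204.3, 199.9 and 176.6 CPM in *sid-1(jam86[revertant])*, lower by -0.26 ± 0.06 (adjusted p = 0.0483). *pqn-94* (-0.29 ± 0.07, adjusted p = 0.0782) and *pqn-29* (0.39 ± 0.12, adjusted p = 0.117) were below the threshold. *pqn-94* was at 31.7, 25.6 and 30.7 CPM in the revertant and *pqn-29* at 3.16, 3.32 and 2.95 CPM against 2.56, 2.27 and 2.39 CPM. The *abu* genes did not separate these strains: for *abu-8* the revertant range of 43.8 to 56.1 CPM held all 3 libraries of the nonsense mutant. The count ran from 0 to 4 when 1 library was left out, at 4 without nonsense library 1, 3 without revertant library 1 and 0 without any of the other 4. With the replicate number as a block it was 0.

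**Figure D4:**
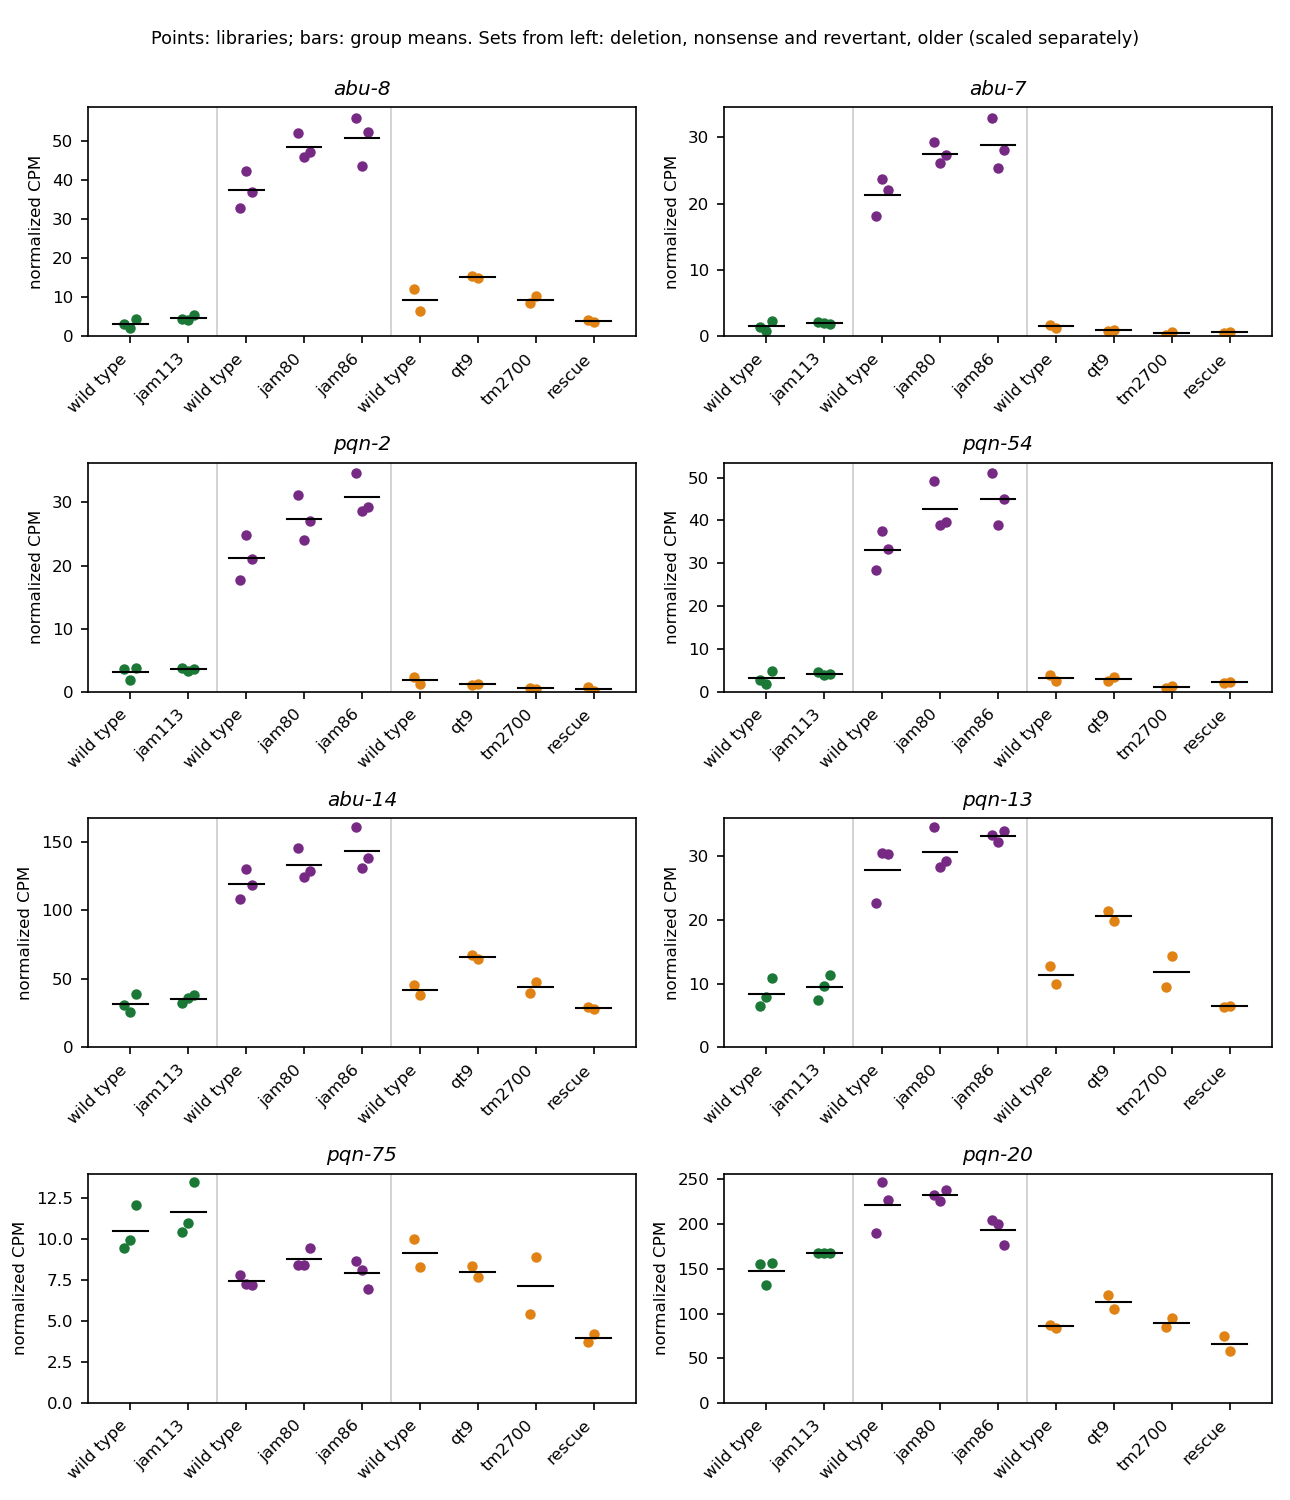
Normalized CPM of 8 members in every library (points) with group means (bars), by strain, with vertical axes from 0 and the sets scaled separately. The shifted genes *abu-8*, *abu-7*, *pqn-2* and *pqn-54* are high in the nonsense set, as fixed by their choice from the wild types of the plate sets. There the group means of both edited strains lie above that of the wild type, without passing the test in the nonsense mutant. *pqn-75* is lowest in the rescue strain, at 3.70 and 4.18 CPM.

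Whether the deletion and the nonsense allele act differently on these genes was tested as an interaction over both sets. Of 65 members tested, 0 differed (edgeR, adjusted p under 0.05), against 0.250% of 17171 genes. At an unadjusted p under 0.05 there were 6 members, 9.23%, against 10.8% of all genes. The lowest p belonged to *pqn-53* (difference of log2 fold changes -0.24 ± 0.08, adjusted p = 0.282) and *pqn-94* (-0.46 ± 0.17, adjusted p = 0.296), both below the threshold, and no other tool was run. The next was *abu-9*, for which no value is given because of its zeros.

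In the older set, *sid-1(qt9[nonsense])* had 8 of 63 members higher than the wild type and 0 lower, against 1.03% of 18273 genes that were higher (edgeR). Every mutant library lay above both wild-type libraries in 28 of 63 members, against 23.3% of all genes. *abu-14* was at 45.7 and 38.5 CPM in the wild type and at 67.5 and 64.2 CPM in the mutant (0.63 ± 0.12, n = 2 against 2, adjusted p = 0.00327). *pqn-13* was at 12.8 and 9.95 against 21.4 and 19.8 CPM (0.84 ± 0.16, adjusted p = 0.00562). *pqn-32* was at 35.2 and 29.8 against 48.8 and 52.2 CPM (0.63 ± 0.12, adjusted p = 0.00649). The groups lay clear of each other in all 3.

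The remaining 5 were *pqn-87*, *abu-13*, *pqn-15*, *pqn-73* and *pqn-71*. *pqn-87* was at 238.1 and 215.7 CPM in the wild type and at 318.6 and 304.5 CPM in the mutant (0.45 ± 0.10, edgeR adjusted p = 0.0150). *abu-13* was at 24.1 and 23 against 33.6 and 35.3 CPM, and *pqn-15* at 19.9 and 19.7 against 29.6 and 28.8 CPM. *pqn-73* was at 11.8 and 13.5 against 20 and 19.1 CPM, and *pqn-71* at 2.39 and 2.4 against 4.53 and 4.37 CPM (0.88 ± 0.23, adjusted p = 0.0467). *pqn-32* overlaps *rict-1*, *pqn-87* overlaps *aqp-12* and *abu-13* overlaps *F57B9.3* on the other strand.

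Of the shifted genes, *abu-14*, *pqn-71* and *pqn-32* were thus called in *sid-1(qt9[nonsense])*, while others were below the threshold. *abu-6* was at 2.15 and 0.93 CPM in the wild type and 0.63 and 1.03 CPM in the mutant (-0.89 ± 0.39, edgeR adjusted p = 0.267), while *abu-8* was at 12.1 and 6.57 against 15.5 and 15.1 CPM (0.69 ± 0.20, adjusted p = 0.0841). Of the lists, 3 of 20 moulting genes (*mlt-11* 0.78 ± 0.13), 2 of 32 pharyngeal cuticle genes (*chs-2*, a chitin synthase, 0.87 ± 0.18), 2 of 13 pharynx genes (*myo-2* 0.64 ± 0.12) and 2 of 4 body muscle genes were higher and none lower. Of 148 cuticle collagens 23 were higher and 4 lower, and 4 of 6 vitellogenins were higher, *vit-3* by 0.89 ± 0.15. The moulting list summed to 751 to 814.8 CPM against 624.6 to 682.4 CPM in wild type and the pharyngeal cuticle list to 145.7 to 154.9 against 121.9 to 144.3 CPM, and their part was not tested. The count was 5 without wild-type library 1, 0 without wild-type library 2 and 17 without mutant library 2, and with the replicate number as a block it was 5.

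The rescue strain had the most members past the test of any strain compared with a wild type in its set. Of 62 tested, 15 were lower and 0 higher, against 2.28% of 18297 genes that were lower (edgeR, adjusted p under 0.05). The median log2 fold change was -1.20 over 11 *abu* genes, all below 0, and -0.30 over all members tested, whereas the median of all genes was 0.00. In 39 of 62 members both rescue libraries lay below both wild-type libraries, against 21.2% of all genes. *abu-9*, with 0 reads in both rescue libraries, was 1 of the 15 and does not set the median, and 13 were called when neighbours were summed.

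*pqn-75* was at 9.98 and 8.30 CPM in the wild type and at 3.70 and 4.18 CPM in the rescue strain (-1.23 ± 0.19, edgeR adjusted p = 3.74e-05). *abu-8* was at 12.1 and 6.57 against 4.15 and 3.71 CPM (-1.27 ± 0.22, adjusted p = 2.06e-04). *abu-10* was at 4.46 and 2.75 against 1.28 and 1.63 CPM (-1.32 ± 0.27, adjusted p = 0.00210). The groups did not overlap, and in each the first wild-type library was the highest. Without that library, *abu-8* and *abu-10* were below the threshold. *pqn-75* overlaps *C35B1.8* and *W03D2.9* on the other strand. By TPM, *pqn-75* was at 6.27 and 2.94 in the wild type and at 1.27 and 2.31 in the rescue strain.

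*pqn-2* was at 2.39 and 1.29 CPM in the wild type and at 0.73 and 0.19 CPM in the rescue strain (-2.06 ± 0.42, edgeR adjusted p = 0.00203). *abu-6* was at 0.55 and 0.27 CPM in the rescue strain (-1.97 ± 0.43, adjusted p = 0.00436). *abu-1* was at 4.78 and 2.31 against 0.68 and 2.01 CPM (-1.38 ± 0.33, adjusted p = 0.00980). Summed, *abu-1* and *pqn-2* were lower by -1.58 ± 0.27, *abu-15*, *abu-6* and *abu-7* by -1.34 ± 0.26, and *pqn-57* and *abu-9* by -1.73 ± 0.47, each past the test.

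*abu-11* was at 4.46 and 4.17 CPM in the wild type and at 2.33 and 1.86 CPM in the rescue strain (-1.06 ± 0.23). *abu-7* was at 1.76 and 1.29 against 0.59 and 0.74 CPM (-1.20 ± 0.35, edgeR adjusted p = 0.0465). *pqn-13* was at 6.39 and 6.58 CPM in the rescue strain (-0.82 ± 0.17), *pqn-74* at 6.03 and 6.11 CPM against 13.9 and 8.39 CPM (-0.89 ± 0.19), and *pqn-36* at 2.28 and 1.97 against 3.95 and 3.6 CPM (-0.84 ± 0.23). *pqn-25*, *pqn-48* and *abu-14* were the other 3 called, with log2 fold changes between -0.67 and -0.43. *pqn-48* overlaps *rpn-11* and *pqn-36* overlaps *psa-3* on the other strand. *abu-11* and *pqn-75* were the 2 members called without wild-type library 1. Without rescue library 1 the log2 fold change of *pqn-2* was -3.23, and without rescue library 2 that of *abu-1* was -2.38.

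Markers of the pharynx were also lower in the rescue strain. Of 13 pharynx genes 3 were lower and 0 higher, *myo-2* by -1.33 ± 0.13, *myo-1* by -1.33 ± 0.14 and *tnt-4* by -0.57 ± 0.13, and their sum was 428.3 to 526.7 CPM against 610.4 to 752.1 CPM in the wild type. Of 20 moulting genes 2 were lower (*mlt-10* -0.57 ± 0.13, *qua-1* -0.68 ± 0.17), with sums of 585.9 to 618.6 against 624.6 to 682.4 CPM. Of 32 pharyngeal cuticle genes 2 were lower (*idpp-11* -1.75 ± 0.41), with sums of 101.5 to 123.3 against 121.9 to 144.3 CPM, which overlapped. Cuticle collagens moved both ways, 18 higher and 25 lower of 148. The part of these lists in the *abu* and *pqn* differences was not tested.

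*sid-1(tm2700[deletion])*, which the rescue strain carries beneath its transgene, was compared with both the rescue strain and the wild type. These comparisons share libraries with the previous one and with each other. Against the rescue strain, 11 of 62 members were higher and 1 lower, beside 1.37% of 18294 genes that were higher and 0.683% that were lower (edgeR). The pair *pqn-57* and *abu-9* gave 1 call in each direction, but their sum did not differ (-0.26 ± 0.60, adjusted p = 0.910), and 10 members were called, all higher, when neighbours were summed.

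*abu-8* was at 8.48 and 10.4 CPM in *sid-1(tm2700[deletion])* and at 4.15 and 3.71 CPM in the rescue strain (1.26 ± 0.17, edgeR adjusted p = 1.11e-05). It was called whichever library was left out. *pqn-71* was at 3.05 and 4.35 against 1.96 and 1.51 CPM (1.10 ± 0.23, adjusted p = 0.00504), and *pqn-36* at 3.05 and 5.11 against 2.28 and 1.97 CPM (0.94 ± 0.23). *pqn-13* was at 9.46 and 14.3 CPM in the mutant (0.87 ± 0.17), *pqn-67* at 5.54 and 5.99 against 2.74 and 3.56 CPM (0.86 ± 0.19), and *pqn-75* at 5.43 and 8.87 CPM (0.85 ± 0.20).

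*pqn-74* was at 9.96 and 11.8 CPM in *sid-1(tm2700[deletion])* (0.84 ± 0.15) and *abu-14* at 39.9 and 48.0 against 29.6 and 27.8 CPM (0.62 ± 0.12). *pqn-22* was at 32.5 and 39.2 against 24.6 and 25.2 CPM (0.53 ± 0.12), and *pqn-20* at 85.0 and 95.0 against 74.5 and 57.7 CPM (0.45 ± 0.12). No overlap was seen in any of these, and in 29 of 62 members both mutant libraries lay above both rescue libraries, against 20.4% of all genes. Among shifted genes below the threshold, *abu-7* was at 0.26 and 0.67 CPM in the mutant and *pqn-2* at 0.64 and 0.50 CPM. The rescue strain was at 0.59 and 0.74 CPM and at 0.73 and 0.19 CPM. Only *abu-8* remained called without the second library of the mutant. *pqn-22* overlaps *C46G7.1* on the other strand. Body muscle markers (4 of 4 higher, *myo-3* by 0.72 ± 0.12, sums of 2783 to 3303 against 1879 to 2221 CPM) and pharynx markers (4 of 13 higher, *myo-2* by 1.49 ± 0.15, sums of 610.7 to 792.4 against 428.3 to 526.7 CPM) were higher in the same direction, and their part was not tested.

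Against the wild type, 0 of 61 members passed the test in *sid-1(tm2700[deletion])*, beside 1.11% of 18311 genes (edgeR), 13 members had an unadjusted p under 0.05 (10.7% of all genes did), limma(voom) called 0 and DESeq2 called 1. The lowest p values belonged to shifted genes that were lower in the mutant. *pqn-54* was at 4.07 and 2.58 CPM in the wild type and at 1.02 and 1.51 CPM in the mutant (-1.41 ± 0.29, adjusted p = 0.0511). *pqn-2* was at 2.39 and 1.29 against 0.64 and 0.50 CPM (-1.68 ± 0.37, adjusted p = 0.0693), and *abu-1* at 4.78 and 2.31 against 1.13 and 1.38 CPM (-1.51 ± 0.34, adjusted p = 0.0719).

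All 3 were below the threshold by a small margin. Summed, *abu-1* and *pqn-2* passed it (-1.57 ± 0.30, edgeR adjusted p = 0.0413), and *abu-15*, *abu-6* and *abu-7* did not (-1.46 ± 0.33, adjusted p = 0.0800). With the replicate number as a block, 5 members were called, *abu-1*, *abu-6*, *abu-7*, *pqn-2* and *pqn-54*. Each library left out gave calls as well: 3 without wild-type library 1, 9 without wild-type library 2, 5 without mutant library 1 and 8 without mutant library 2. *abu-8* had no such difference (0.00 ± 0.24), since its level of 8.48 and 10.4 CPM lay between the wild-type libraries.

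**Figure D5:**
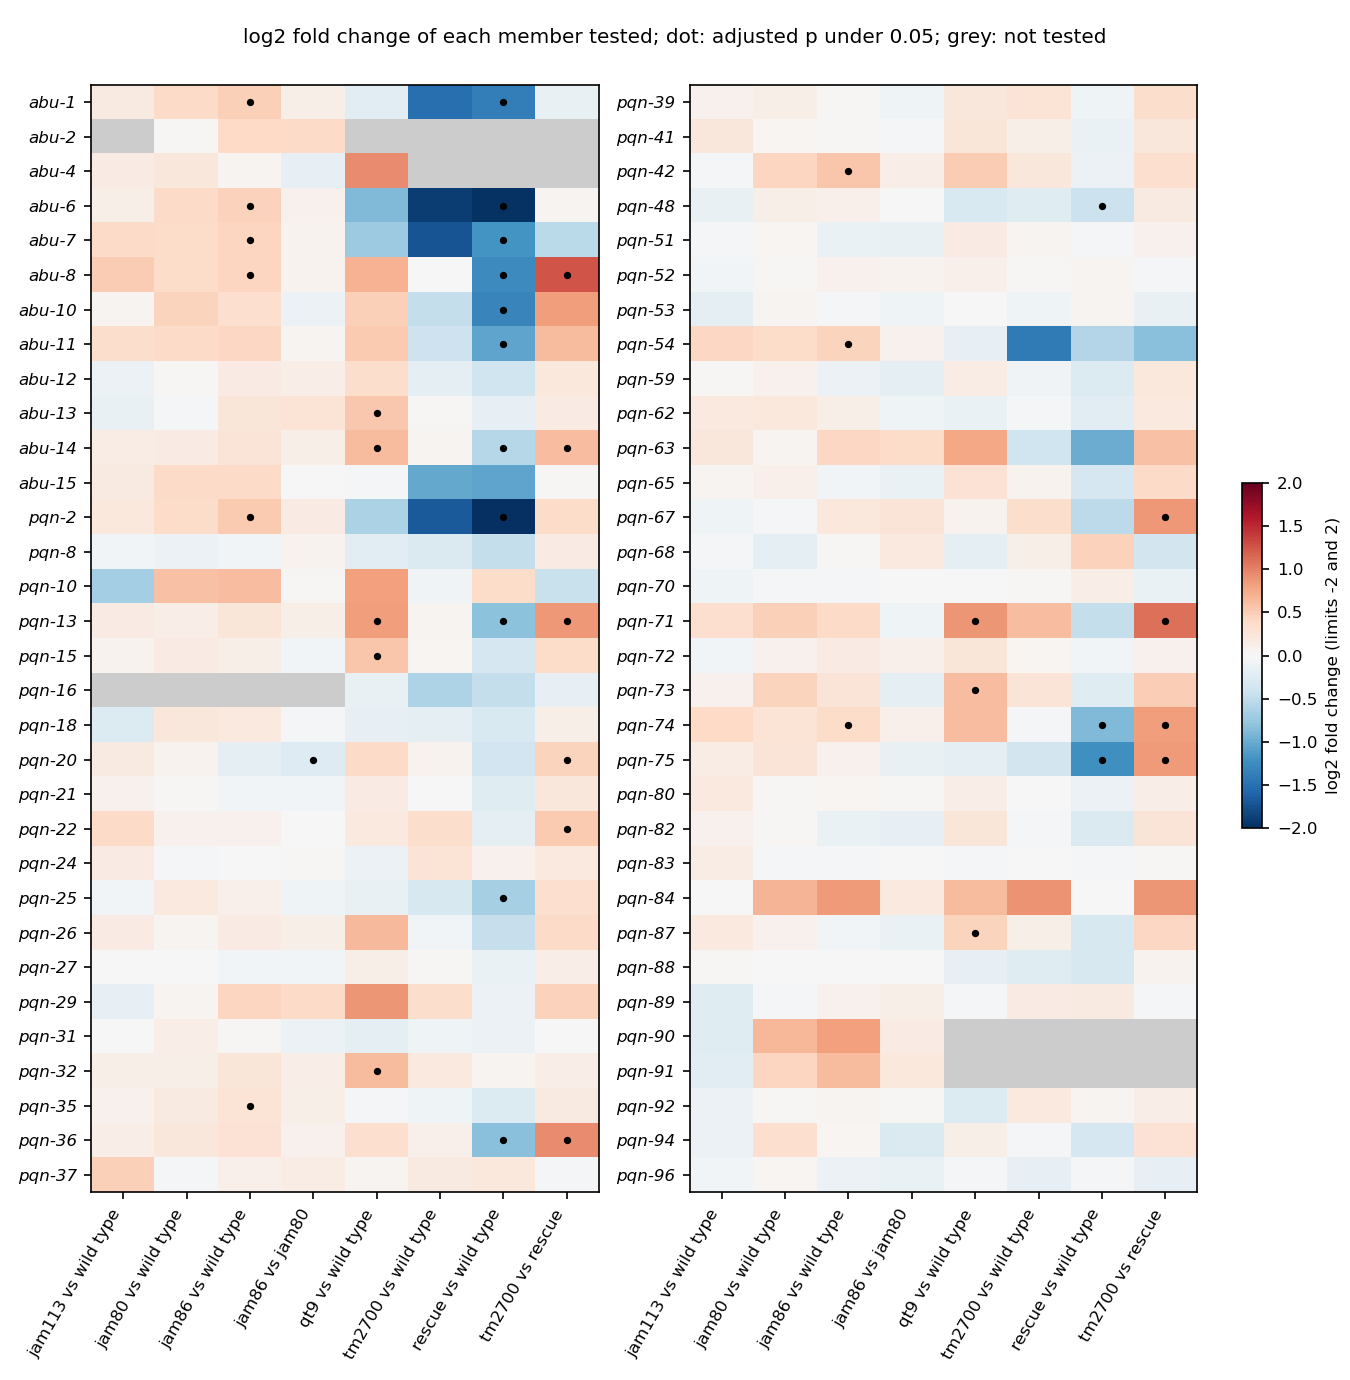
Log2 fold change of every member tested (colour, limits -2 and 2) in the 8 comparisons within sets, with a dot where edgeR's adjusted p was under 0.05, grey where the gene was not tested, and *pqn-57* and *abu-9* left out. The columns of the nonsense set hold mostly pale increases, up to 0.85 for *pqn-84* in the revertant, and the rescue column holds the decreases of *abu-6* (-1.97) and *pqn-2* (-2.06).

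Side by side, the shifted genes *abu-1*, *abu-6*, *abu-7* and *pqn-2* had log2 fold changes between 0.43 and 0.53 in the revertant, where they were at 23.5 to 51.5 CPM. In the rescue strain these were between -2.06 and -1.20, at 0.19 to 2.01 CPM. For these genes the decrease was not particular to the rescue strain. In *sid-1(tm2700[deletion])* against the wild type, *abu-1* and *pqn-2* summed were at -1.57 ± 0.30, and *abu-15*, *abu-6* and *abu-7* at -1.46 ± 0.33, the second below the threshold. Between *sid-1(tm2700[deletion])* and the rescue strain these sums differed by -0.00 ± 0.25 and -0.13 ± 0.26. Other members did separate these strains. *abu-8* was at 8.48 and 10.4 CPM in *sid-1(tm2700[deletion])*, between the wild-type libraries, and at 4.15 and 3.71 CPM in the rescue strain. Like *abu-8*, *abu-14*, *pqn-13*, *pqn-36*, *pqn-74* and *pqn-75* were called in the rescue strain against both. None of them was called in *sid-1(tm2700[deletion])* against the wild type. The genes of the unfolded protein response had medians between -0.09 and 0.13 in the 8 comparisons within sets, and *pek-1* in the revertant was the 1 call among them (edgeR).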

How the data were processed

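PolyA+ RNA of 23 libraries was used. The authors trimmed reads with cutadapt and quantified transcripts with salmon against a transcript set of genome ce11 (WBcel235), versions not given in the sources used here. The deposited estimated counts per transcript are not normalized. The deposited TPM values are adjusted for effective length by salmon. Transcripts were mapped to genes with Ensembl release 115, a later release than the authors used: 31176 of 35749 had its identifiers, 4485 its sequence names, and the 88 others kept their own. Sums were rounded to whole numbers.

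Genes over 0.1 CPM in 3 libraries or more (2 in the older set) entered TMM normalization and the quasi-likelihood test of edgeR 4.0.16 (run in R 4.3.3), with Benjamini-Hochberg adjustment over all genes. The threshold was an adjusted p of 0.05. Only the groups compared entered a fit. Standard errors were derived from the fold change and the F statistic. limma(voom) (limma 3.58.1), DESeq2 1.42.0, DESeq2 size factors, no filter, all strains of a set, a replicate block, length-scaled TPM and leaving out each library were alternatives, and sums of members under 2000 bp apart and the comparison of wild types were added after seeing the data. The fit was tested on simulated data. Members with an adjusted p under 0.05 (up to 12 per comparison by size), the 5 with the highest TPM and, where fewer than 3 changed, the 3 with the lowest p are given by library. The members and lists were chosen with earlier results of these data known. The methods call the replicates biological. No library was a copy of another of the same strain and set, the only pairs checked, and p-values cover only the spread among these samples. The sources do not say that the older libraries kept strand, so genes that overlap on opposite strands are uncertain there.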

Additional observations from a re-analysis of the deposited data

How the results depend on the processing

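Counts of *abu* and *pqn* genes past the threshold depended on the setting more than their directions did. No count changed by more than 1.5 times for the wild types of the plate sets (43 to 51 members). For *sid-1(jam80[nonsense])* against wild type the count of 0 became 6 with DESeq2 and 2 with no filter, and for *sid-1(jam86[revertant])* the count of 10 became 4 with length-scaled TPM. For the revertant against the nonsense mutant the count of 1 became 3 with DESeq2 or no filter and 0 with all strains of the set or length-scaled TPM. For *sid-1(qt9[nonsense])* it fell from 8 to 5 with length-scaled TPM. For *sid-1(tm2700[deletion])* against the rescue strain it fell from 12 to 6 with DESeq2 or all strains, and against the wild type it rose from 0 to 1 with DESeq2, with DESeq2 size factors or with neighbours summed, and to 5 with no filter or all strains. For the rescue strain against the wild type it fell from 15 to 7 with DESeq2. The cause was not tested.

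The replicate numbers were not taken to pair the samples, since the correlations of same-numbered deviations were not all above 0.1. This cannot exclude a pairing: replicate 1 of *sid-1(jam113[deletion])* and its wild type had a correlation of 0.321. With 2 libraries per strain, as in the older set, the deviations mirror each other and cannot decide. A replicate block gave 2 calls in the revertant, 0 for the revertant against the nonsense mutant, 5 in *sid-1(qt9[nonsense])* and 5 in *sid-1(tm2700[deletion])* against wild type, and moved no other count by over 1.5 times. Leaving out 1 library gave 0 to 1 calls in *sid-1(jam113[deletion])*, 0 to 6 in *sid-1(jam80[nonsense])*, 0 to 11 in the revertant, 0 to 4 for the revertant against the nonsense mutant, 0 to 17 in *sid-1(qt9[nonsense])*, 1 to 17 and 3 to 9 in *sid-1(tm2700[deletion])* against rescue and wild type, and 2 to 18 in the rescue strain. Of 69 named fold changes none reversed under any setting. With all libraries kept, 412 of their values stayed on the same side of the threshold, 63 fell below it and 17 rose above it.

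With 2 or 3 libraries per strain, differences of small size in genes at a few CPM could not be detected. The split of members by cysteine content was not run, since no protein sequence was given. The interaction was fitted in 1 way only. The order of the 5 highest members was taken by TPM, and the same 5 led by CPM per kilobase.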

Other observations

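Against the direction of most members, 4 *pqn* genes were lower in the wild type of the nonsense set than in that of the deletion set, named here after their values were seen. *pqn-70* was at 137.5, 143.6 and 141.5 CPM against 174.6, 168.4 and 164.8 CPM, *pqn-73* at 2.45, 1.86 and 2.48 against 3.53, 5.06 and 4.29 CPM, *pqn-88* at 2.96, 2.61 and 2.48 against 3.99, 3.36 and 3.61 CPM, and *pqn-84* at 0.18, 0.16 and 0.16 against 0.36, 0.38 and 0.45 CPM. The groups did not overlap in any of them, and the log2 differences ran from -1.26 to -0.26 (edgeR, adjusted p from 3.35e-04 to 0.0122).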
